A study of Caenorhabditis elegans with 6 samples.

Results

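The genes described here are 31 genes of the Caenorhabditis elegans germline, oocyte, eggshell and early embryo, taken by their exact names from the 22416 genes with read counts; all 31 were found, and all 31 passed the filter on low counts that left 15519 genes for testing. They were described by role as 5 germ granule genes, 7 genes that regulate germ cells and oocytes (RNA-binding proteins and 1 receptor), 12 eggshell genes and 7 early embryo genes. RNA came from pools of whole worms of strain CL2006, which carries pCL12, an unc-54 promoter (body wall muscle) driving a minigene of the human Abeta peptide 1-42, together with pRF4, a marker plasmid that carries a dominant rol-6 allele and makes worms roll. Both groups carry these transgenes. The worms were kept at 20 °C for 2 generations on HT115 bacteria with an empty vector (EV) or on HT115 bacteria expressing RNAi against the gtr-1 3'UTR. The second generation was washed each day to remove progeny and was collected on day 6 of adulthood. Each group had 3 libraries, 1 in each of batches 2, 3 and 4, as the labels number them.

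The adult hermaphrodite gonad is a tube in which germ cells divide at the distal end under Notch signalling, enter meiosis, grow into oocytes and are fertilised one after another. Oocytes are loaded with maternal mRNAs, many of which are held silent by RNA-binding proteins until after fertilisation. Germ granules are the RNA-protein condensates around germ cell nuclei in which many of the maternal transcripts are handled. Much of the eggshell is built by the zygote right after fertilisation from proteins and enzymes already made in the oocyte, so the eggshell mRNAs are carried by oocytes.

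Depth was even and the RNAi target did not separate the groups. The libraries held between 43067539 and 59812227 counts. gtr-1 (WBGene00017779) was counted 32, 16 and 12 times with the empty vector (batches 2, 3, 4) and 38, 26 and 11 times with the gtr-1 RNAi label. The edgeR log2 difference for gtr-1 was 0.13 with an SE of 0.30 (adjusted p = 0.886). Treated libraries are therefore called by their label here, and the direction of every treatment difference depends on that label. The labels number the batches without saying whether these were separate cultures, extractions or sequencing runs, and the p-values measure the spread between the libraries, which may be technical. Batch 2 stood apart from batches 3 and 4 in many genes: 6721 genes, 43.3% of those tested, differed between batches at an adjusted p under 0.05 in the edgeR test of the batch terms. With RNA from whole worms, fewer germ cells and less of an mRNA per germ cell cannot be told apart.

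The germline genes were abundant in these day 6 adults. Together the 31 genes took 2.32 ± 0.303% of all counts with the empty vector and 2.195 ± 0.326% with the gtr-1 RNAi label (SD, 3 libraries each). By batch the shares of the empty vector and the gtr-1 RNAi label were 1.97% and 1.83% in batch 2, 2.46% and 2.32% in batch 3, and 2.52% and 2.45% in batch 4. To compare one gene with another, counts were divided by the exonic length of the gene and scaled to the same total in each library (TPM). Mean levels over the 6 libraries ran from 55.9 TPM for glh-4 to 3254 TPM for perm-4.

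**Figure D1:**
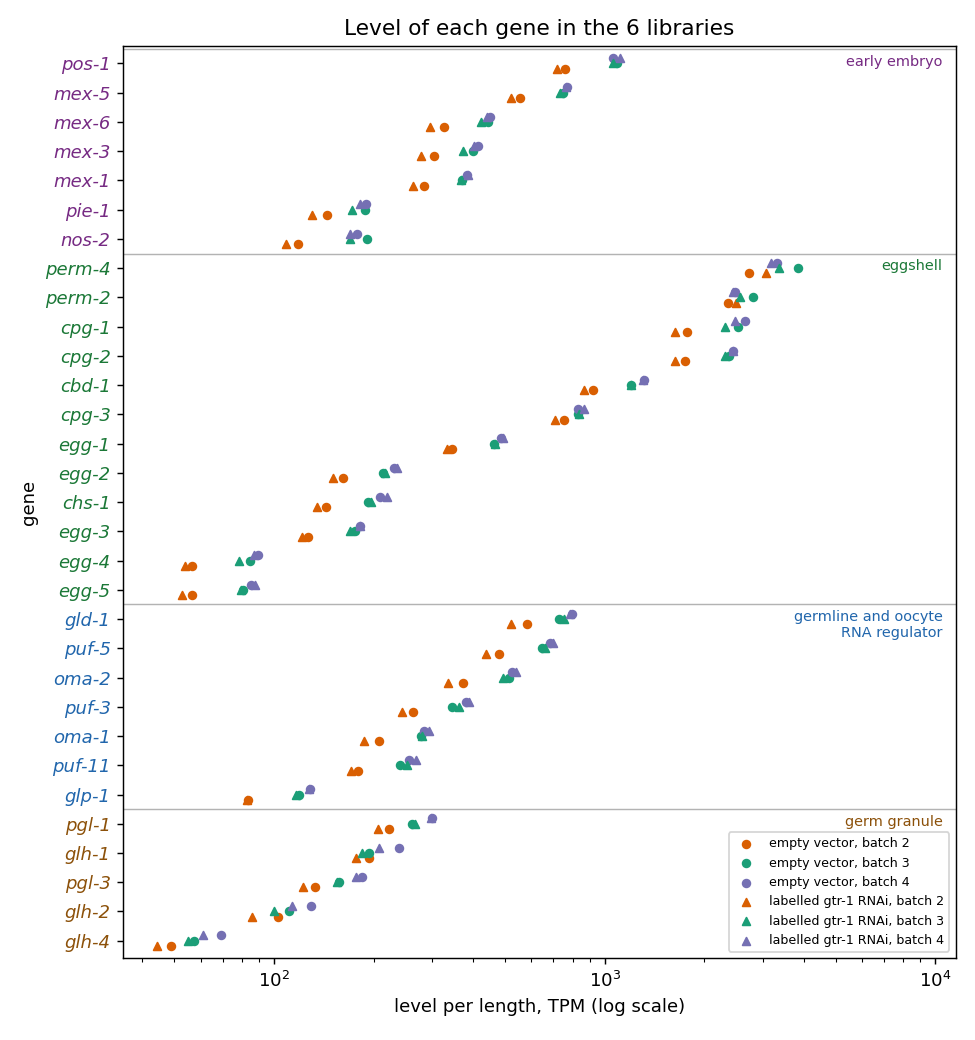
Level per length (TPM, log scale) of the 31 genes, grouped by role and sorted by mean level within a role; circles are empty vector libraries, triangles libraries labelled gtr-1 RNAi, and colours the batches. The range runs from glh-4, at 44.4 to 69.4 TPM, to perm-4, at 2730.5 to 3836 TPM, and the batch 2 libraries lie to the left for most genes.

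Eggshell genes spanned most of the range of levels. The highest 4 of all 31 were eggshell genes: perm-4 and perm-2, both needed for the permeability barrier of the embryo, and cpg-1 and cpg-2, chitin-binding chondroitin proteoglycans of the eggshell. Mean levels were 3254, 2524, 2229 and 2155 TPM. perm-2 ran from 2354 to 2811 TPM over the libraries and cpg-1 from 1628 to 2652 TPM, so these neighbours in the order overlapped, as did cpg-1 and cpg-2 (1628 to 2439 TPM). cbd-1, a chitin-binding protein of the outer vitelline layer, followed at 1134 TPM and cpg-3, another chondroitin proteoglycan, at 805 TPM. egg-1 and egg-2, LDL receptor-repeat membrane proteins of the oocyte surface needed for fertilisation, stood at 432 and 202 TPM. The chitin synthase gene chs-1 stood at 183 TPM, and egg-3, a phosphatase-like protein that holds the chitin synthase and the kinase MBK-2 at the cortex, at 159.7 TPM. The lowest of the eggshell genes were egg-4 and egg-5, a pair of phosphatase-like inhibitors of MBK-2 that act together, at 75.0 and 73.6 TPM; their ranges (53.9 to 89.7 and 52.7 to 87.4 TPM) overlapped almost fully.

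Regulators of germ cells and oocytes were led by gld-1, a KH-domain repressor of translation that drives meiotic entry and oocyte fate, at 694 TPM. puf-5, a Pumilio-family RNA-binding protein of late oogenesis, stood at 600.4 TPM. The zinc finger proteins of oocyte maturation oma-2 and oma-1 were at 463 and 255 TPM, and the Pumilio-family genes puf-3 and puf-11 at 331 and 228 TPM. glp-1, the Notch receptor that keeps distal germ cells dividing, was the lowest of these at 109.7 TPM (82.6 to 129 TPM).

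Among early embryo genes, pos-1, a zinc finger protein of early cell fates, was the highest at 965 TPM. The related polarity genes mex-5 and mex-6, also of the zinc finger class, followed at 682 and 397 TPM. mex-3, a KH-domain repressor, and mex-1, a zinc finger protein of the germ lineage, were close at 362 and 343 TPM, with overlapping ranges of 279 to 413 and 263 to 387 TPM. pie-1, which silences transcription in the germ lineage, and nos-2, a Nanos-family protein of the primordial germ cells, stood at 168 and 156 TPM and also overlapped.

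Germ granule genes were of moderate level. The granule scaffold genes pgl-1 and pgl-3 were at 259 and 155 TPM. The Vasa-related RNA helicases glh-1, glh-2 and glh-4 were at 199, 107.0 and 55.9 TPM.

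The comparison of treatments asked whether these genes differed between the gtr-1 RNAi label and the empty vector. No gene of the 31 passed in either direction at an edgeR adjusted p under 0.05, where 0.0902% of all genes tested were called. DESeq2 also called 0 of the 31, beside 244 higher and 97 lower of all 15519 genes. The adjusted p of the 31 ran from 0.193 to 0.999. At an unadjusted p under 0.05 edgeR gave 5 lower (glh-1, glh-2, glh-4, pie-1 and nos-2) and 0 higher, against 5.68% of all genes lower and 4.99% higher. At that p DESeq2 gave 2 lower and 0 higher, against 438 lower and 634 higher of all 15519 genes. The groups overlapped for all 31 genes, and 5.99% of all genes tested had groups without overlap. For the 31 this was fixed by the batches, since both batch 2 libraries were lower than all other libraries for each gene. The overlap therefore says nothing about the treatment. The 95% intervals of the fold change lay between 0.805 (the lower end of glh-2) and 1.13 (the upper end of perm-4). These intervals are not adjusted for the number of genes. The median log2 fold change of the 31 was -0.04, beside -0.03 over all genes tested, and 29 of 31 estimates lay below 0, beside 58.4% of all genes.

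**Figure D2:**
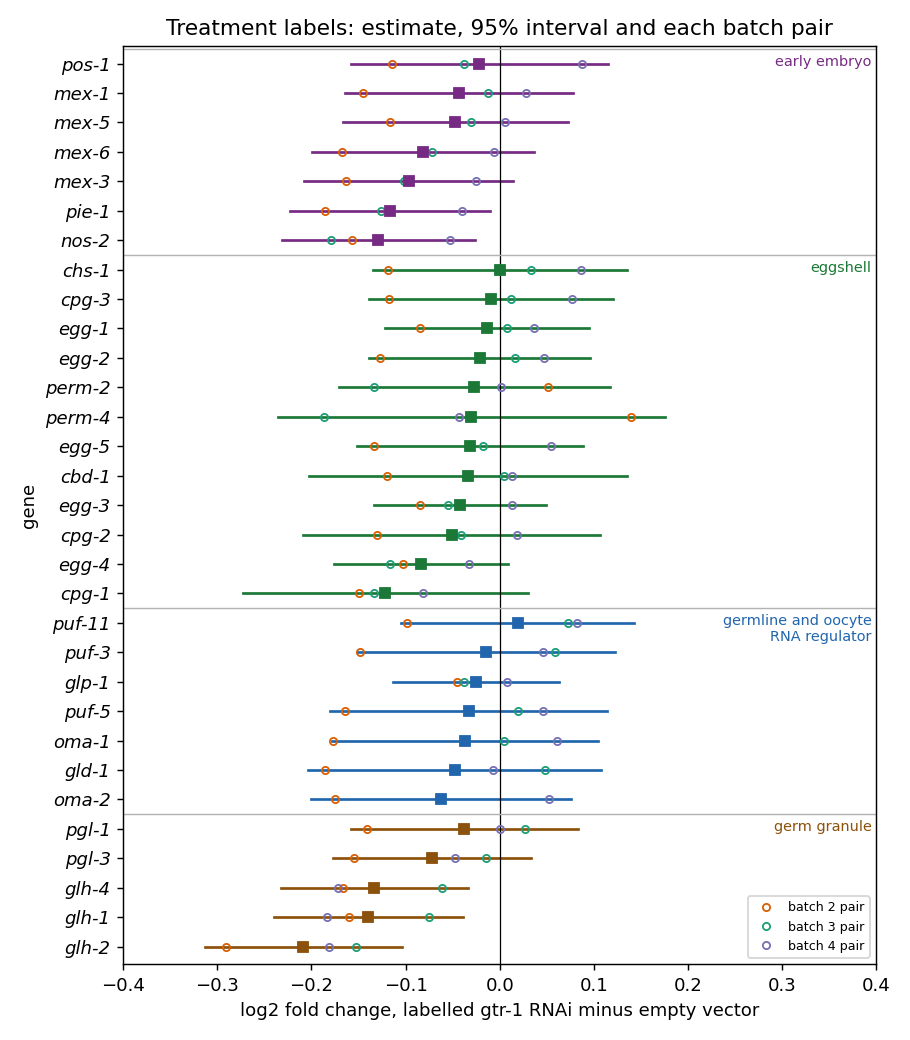
Log2 fold change of each gene, the libraries labelled gtr-1 RNAi minus the empty vector: squares are the edgeR estimates, bars their 95% intervals, and open circles the 3 batch pairs. 26 of the 31 intervals include 0; the other 5 are glh-1, glh-2, glh-4, pie-1 and nos-2.

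Germ granule genes had a median log2 fold change of -0.13, and all 5 estimates lay below 0. The value with the smallest p was that of glh-2 (WBGene00001599, chromosome I, 6513928 to 6517507 in WBcel235). glh-2 was at 211, 247 and 281 CPM (counts scaled to library size after TMM scaling) with the empty vector in batches 2, 3 and 4, and at 172, 223 and 248 CPM with the gtr-1 RNAi label. Each pair was thus lower, while the low batch 2 values made the ranges of the groups overlap. The log2 fold change of glh-2 was -0.21 with an SE of 0.04, and its pairs stood at -0.29, -0.15 and -0.18 (adjusted p = 0.193 by edgeR). glh-1 averaged 386 ± 53.7 CPM with the empty vector and 350.2 ± 43.5 CPM with the label (SD over 3 libraries each). Its log2 fold change was -0.14 and that of glh-4 was -0.13, each with an SE of 0.04 (adjusted p = 0.345 and 0.36 by edgeR), and both genes were lower in every pair. The scaffold genes had smaller values, with -0.07 ± 0.04 for pgl-3 and -0.04 ± 0.05 for pgl-1 (log2 fold change, SE), and pgl-1 was lower in 1 pair.

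Early embryo genes had a median log2 fold change of -0.08, which ran from -0.12 to -0.02 when a library or pair was left out. nos-2 was at 94.0, 164 and 148 CPM with the empty vector in batches 2, 3 and 4, and at 84.3, 145 and 143 CPM with the gtr-1 RNAi label. It was lower in each pair, by less than the distance between batch 2 and the other batches. Its log2 fold change was -0.13 with an SE of 0.04 (adjusted p = 0.384 by edgeR). The annotation places 154 bases of nos-2 exons opposite exons of him-14, and no source used here says whether the counting used the strand; 8 other members share 5 to 42 exonic bases with a protein-coding neighbour. pie-1 was at -0.12 on the same scale, also with an SE of 0.04 (adjusted p = 0.428 by edgeR). pie-1, mex-3, mex-6 and nos-2 were the 4 of 7 that were lower in all 3 pairs. pos-1, mex-1 and mex-5 had log2 fold changes of -0.02, -0.04 and -0.05.

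Eggshell genes and regulators of germ cells and oocytes lay closest to 0. Their median log2 fold changes were both -0.03, with ranges of -0.12 to 0.0005 over the 12 eggshell genes and of -0.06 to 0.02 over the 7 regulators. cpg-1 (WBGene00000465, chromosome III, 4489359 to 4491392) was the lowest of the eggshell genes. It was at 2131, 3306 and 3371 CPM with the empty vector and at 1921, 3013 and 3186 CPM with the gtr-1 RNAi label. Each pair was lower, while the low batch 2 values made the groups overlap. The log2 fold change was -0.12 with an SE of 0.06 (adjusted p = 0.532 by edgeR). chs-1 stood at 0.0005 with an SE of 0.05, and its pairs at -0.12, 0.03 and 0.09.

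The sign of the treatment difference depended on the pair. In the batch 2 pair 29 of the 31 genes were lower with the gtr-1 RNAi label, beside 62.6% of all genes tested, and the 2 that were not were perm-2 and perm-4. In the batch 3 pair 20 were lower, beside 49.3%, and in the batch 4 pair 12 were, beside 54.8%. The median pair values of the 31 genes were -0.14, -0.04 and 0.01 in batches 2, 3 and 4. Over the 3 pairs, 10 of the 31 (32.3%) were lower in every pair and 0 higher in every pair, beside 22.6% of all genes tested that were lower in every pair. Without the batch 2 pair, 17 of 31 estimates lay below 0, and their median was -0.01; the median of the 7 regulators was then 0.03.

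The batches differed far more than the treatments. All 31 genes were lower in both batch 2 libraries than in each of the other 4 libraries, on the scale of CPM after TMM, where this held for 31.1% of all genes tested. In the edgeR test of the batch terms 30 of 31 genes passed at an adjusted p under 0.05, beside 43.3% of all genes. The exception was perm-2 (edgeR adjusted p = 0.056). DESeq2 called 31, beside 6471 of all 15519 genes. The median fold over batch 2 was 1.51 in batch 3 and 1.55 in batch 4; the comparisons with batches 3 and 4 share the batch 2 libraries, so they are not independent. Leaving out batch 2, 0 of 31 passed between batches 3 and 4 in edgeR, beside 356 of 15147 genes. At an unadjusted p under 0.05 there were 9 of the 31, a count that was not made over all genes. Scaled by DESeq2 size factors, 31 genes again had both batch 2 libraries lowest, beside 33.7% of all genes. Scaled by total counts alone 27 had, beside 18.7%, the others being glh-1, glh-2, perm-2 and perm-4, and the sign then turned for glh-1 in batch 3 and for perm-2 in batch 4. The median over all genes tested was itself -0.10 in batch 3 and -0.18 in batch 4 (log2, against batch 2), and total-count scaling moved these by -0.21 and -0.18. The difference between the median of the 31 genes and that of all genes was 0.69 in batch 3 and 0.82 in batch 4 with TMM. Total-count scaling moves all genes of a library alike, so the same 0.69 and 0.82 with it are built in and check nothing. The difference did depend on the filter: it was 0.54 and 0.62 with a minimum count of 50, and 0.82 and 0.94 with no filter.

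**Figure D3:**
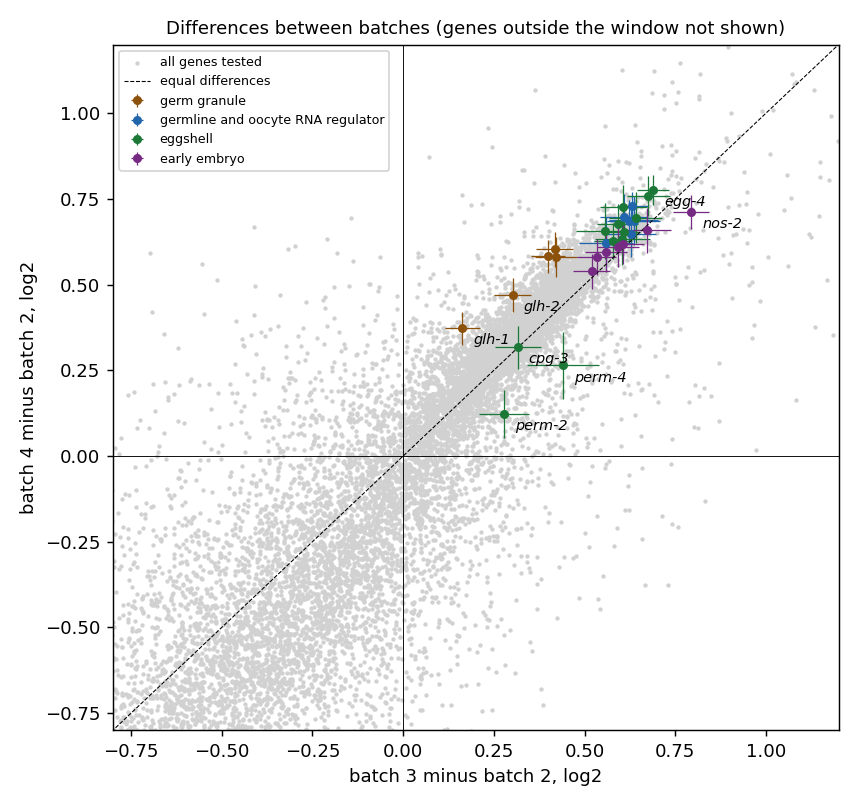
Log2 difference of batch 3 (horizontal) and of batch 4 (vertical) from batch 2, over both libraries of a batch, for the 31 genes with their standard errors and for all genes tested in grey within the window shown; both axes share the batch 2 libraries. Most of the 31 lie near 0.6 on both axes, while perm-2, perm-4, cpg-3, glh-1 and glh-2 lie nearer to 0. All but 4 of the 31 lie above the dashed line of equal differences, and the germ granule genes lie furthest above it.

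Regulators of germ cells and oocytes were the most uniform role. glp-1 (WBGene00001609, chromosome III, 9092241 to 9099698) was at 230.4 and 223 CPM in batch 2 with the empty vector and the gtr-1 RNAi label, at 356 and 347 CPM in batch 3, and at 375 and 377 CPM in batch 4. Libraries of a batch thus stood together, with batch 2 well below the rest. The fold over batch 2 was 1.55 and 1.66 (edgeR adjusted p = 0.00399 for batch). The other 6 regulators had log2 differences from batch 2 between 0.56 and 0.64 in batch 3 and between 0.62 and 0.70 in batch 4.

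Early embryo genes had a median log2 difference from batch 2 of 0.59 in batch 3 and 0.61 in batch 4. nos-2 had the largest difference of the 31 between batches 3 and 2, a fold of 1.73, and a fold of 1.64 in batch 4. pos-1 was at 541 and 499 CPM in batch 2, 839 and 817 CPM in batch 3, and 795 and 845 CPM in batch 4 (empty vector, then gtr-1 RNAi label). Its folds over batch 2 were 1.59 and 1.58. pie-1 had the smallest difference of this role, with folds of 1.43 and 1.45.

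Most eggshell genes had differences of the same size as the oocyte regulators, and cpg-3, perm-2 and perm-4 had smaller ones. egg-4 and egg-5 had log2 differences from batch 2 of 0.69 and 0.68 in batch 3, and of 0.78 and 0.76 in batch 4, the highest of the 31 for batch 4. cpg-3 had folds of 1.24 and 1.25. perm-2 (WBGene00016636, chromosome IV, 1126790 to 1128865) was at 1106 and 1146 CPM in batch 2, 1429 and 1303 CPM in batch 3, and 1226 and 1226 CPM in batch 4. It was thus highest in batch 3, with folds of 1.21 and 1.09 over batch 2. perm-4 (WBGene00016638, chromosome IV, 1121494 to 1125107), which lies 1682 bases from perm-2 on the other strand, was at 1928 and 2124 CPM in batch 2, 2931 and 2576 CPM in batch 3, and 2471 and 2398 CPM in batch 4. Its log2 differences from batch 2 were 0.44 and 0.26, and it shared the order of batches with perm-2 (edgeR adjusted p = 0.0417 for batch).

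Germ granule genes differed less from batch 2 in batch 3 than in batch 4. Their median log2 difference was 0.40 in batch 3 and 0.58 in batch 4, and all 5 had both batch 4 libraries above both batch 3 libraries, which held for 12 of the other 26 genes and for 20.2% of all genes tested. At an unadjusted p under 0.05 all 5 were higher in batch 4 than in batch 3 in edgeR, where 3.09% of all genes were and 0 of the other 26. In that fit, which used all 6 libraries, 0 genes of all tested passed the adjusted threshold between these batches, and the smallest adjusted p of the 5 was 0.465; fitted without batch 2, 356 genes passed, none of them among the 31. The log2 difference of batch 4 from batch 3 was 0.16 to 0.21 over these 5 genes, with a median of 0.18. Single genes of other germline lists reached values of this size, but the medians of those lists were lower. In the other lists described below the median was 0.10 for germ granules, 0.08 for meiosis and 0.06 for RNA regulators. The highest values were 0.28 for germ granules and 0.22 for meiosis. The RNA regulators reached 0.52, but that list also held differences from batch 2 as low as -2.635 in batch 3 and -2.113 in batch 4, unlike the 5 genes. pgl-3 was at 195 and 175 CPM in batch 2, 248 and 245 CPM in batch 3, and 285 and 275 CPM in batch 4. glh-1, the least different from batch 2 in batch 3, had folds of 1.12 and 1.29.

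**Figure D4:**
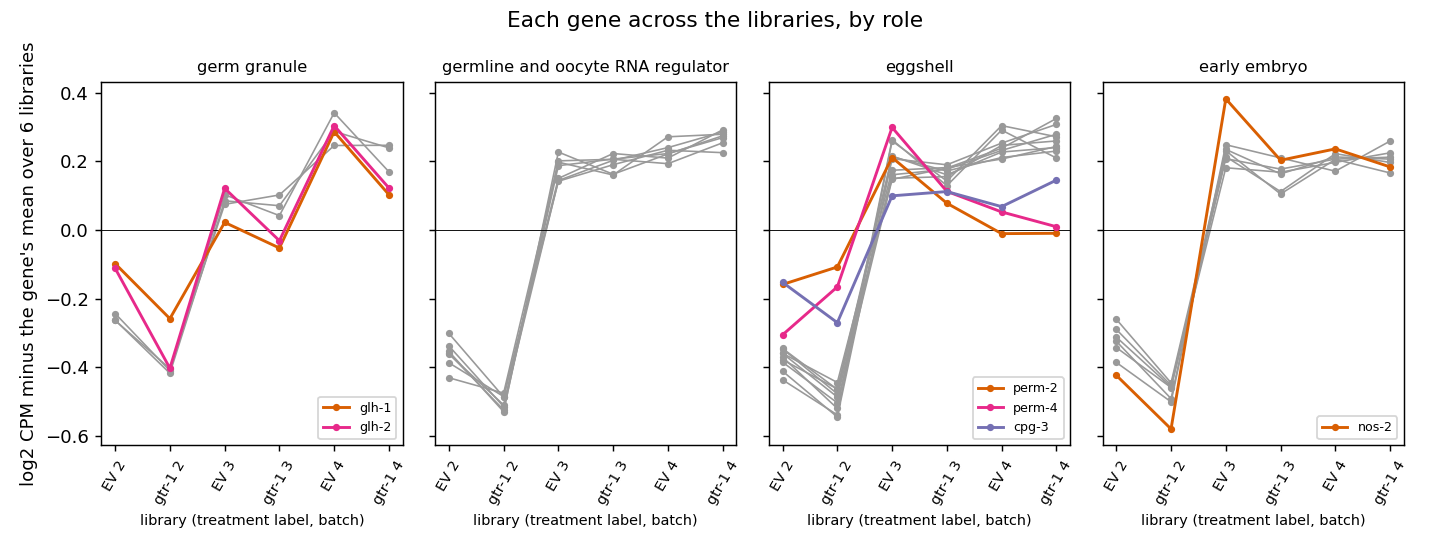
Log2 CPM of each gene minus its mean over the 6 libraries, in 4 panels by role; lines join the values of a gene, and EV and gtr-1 with a number are the empty vector and the gtr-1 RNAi label in that batch. Every gene lies below 0 in both batch 2 libraries; perm-2, perm-4, cpg-3, glh-1, glh-2 and nos-2 are drawn in colour because they depart most from the others.

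The genes moved largely in parallel across the libraries. A gene's log2 CPM ranged over 0.72 between its lowest and highest library at the median of the 31 (0.37 for perm-2 to 0.96 for nos-2). After the median profile of the 31 was subtracted the range was 0.11 at the median, and it was 0.03 for cpg-2, 0.04 for mex-5 and 0.05 for egg-3. It stayed at 0.62 for perm-2, 0.54 for perm-4, 0.46 for glh-1, 0.43 for glh-2, 0.36 for cpg-3 and 0.29 for nos-2. The median profile includes each gene itself, so this is a description only.

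Ratios within pairs of related genes were stable. Since most of the genes moved in parallel, this need not be particular to related genes, and ratios of unrelated genes were not compared. The CPM ratio of egg-4 to egg-5 ran from 0.984 to 1.05 over the 6 libraries, that of puf-3 to puf-11 from 1.43 to 1.49, and that of mex-5 to mex-6 from 1.76 to 1.83. The ratio of oma-2 to oma-1 ran from 1.51 to 1.59, and that of egg-1 to egg-2 from 2.13 to 2.25. perm-4 to perm-2 was less even, at 1.74 to 2.05, and so was glh-1 to glh-2, whose highest ratio was 1.78, in the batch 2 library with the gtr-1 RNAi label, and whose ratios with the empty vector were 1.62, 1.5 and 1.587. egg-4 and egg-5, and puf-3 and puf-11, are close paralogs, so the counting may have moved reads between them, and their separate levels are uncertain.

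Most genes of 5 other germline lists, taken by name, were lower in batch 2 as well on the TMM scale, and those of a list of early zygotic genes were not. Of 15 other germ granule genes 14 passed the batch test, and 14 had both batch 2 libraries lowest. Of 22 meiotic chromosome genes all 22 passed and all 22 were lowest in batch 2, and so were all 18 genes of DNA replication and the cell cycle. Of 22 other germline RNA regulators 20 passed and 19 were lowest in batch 2, and of 15 other genes of the eggshell and egg activation 12 passed and 13 were lowest. Of 13 tested early zygotic genes, which the embryo transcribes itself, 2 passed and 0 were lowest in batch 2. These genes were scarce, and all 19 counted summed to 129 to 151 CPM in a library. Their median SE of the treatment difference was 0.18, beside 0.04 for the meiotic genes, so batch differences were harder to call.

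By treatment, 0 genes of these 6 lists passed in edgeR. Their median log2 fold changes were -0.09 for germ granules, -0.07 for RNA regulators, -0.08 for meiosis, -0.04 for eggshell and egg activation, 0.04 for DNA replication and the cell cycle, and 0.20 for early zygotic genes. At an unadjusted p under 0.05 the lists gave 3, 1, 3, 3, 1 and 1 lower in that order, and 0, 0, 0, 0, 1 and 2 higher, beside 5.68% lower and 4.99% higher over all genes tested. The other germ granule genes with the smallest p were meg-2, a granule assembly factor, at -0.14 ± 0.04, the Piwi protein prg-1 at -0.10 ± 0.03 and the Argonaute csr-1 at -0.13 ± 0.04 (log2 fold change, SE). Among RNA regulators these were the Pumilio-family genes fbf-1 and fbf-2, at -0.18 ± 0.05 and -0.19 ± 0.08, and the Nanos-family gene nos-1 at -0.11 ± 0.04. Among meiotic genes they were lab-1, which protects chromosome cohesion, at -0.23 ± 0.07, the synaptonemal complex gene syp-1 at -0.13 ± 0.05 and the kinase gene plk-2 at -0.09 ± 0.04. Among eggshell genes they were sqv-4, an enzyme that makes a glycosaminoglycan precursor, at -0.10 ± 0.03, and the cytochrome P450 genes cyp-31A2 and cyp-31A3, close copies whose separate counts are uncertain, both at -0.11 ± 0.04. The cyclin E gene cye-1 had -0.12 ± 0.04. mcm-4, a subunit of the replicative helicase, had 0.12 ± 0.04 and rnr-2, a subunit of ribonucleotide reductase, 0.13 ± 0.05. Of early zygotic genes, sdz-27 had -0.28 ± 0.10, and the T-box gene tbx-37 had 0.52 ± 0.17 at 2.34 and 3.32 CPM on average with the empty vector and the label. The related T-box gene tbx-38 had 0.56 ± 0.15 at 4.30 and 6.34 CPM on average with the empty vector and the gtr-1 RNAi label.

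**Figure D5:**
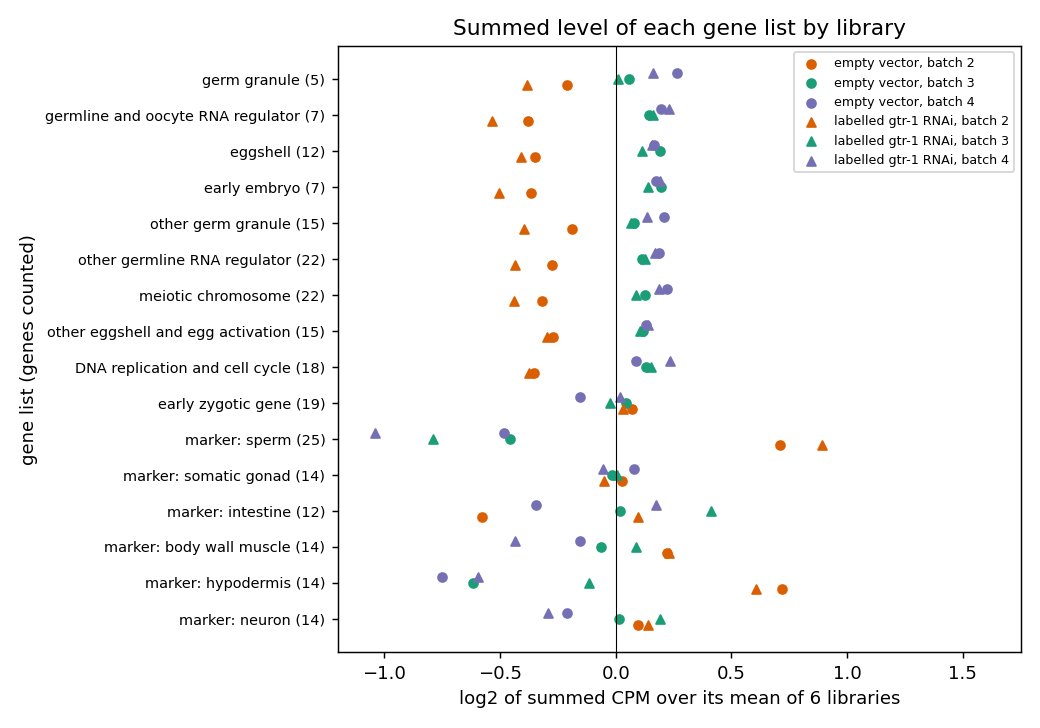
Log2 of the summed CPM of each gene list over its mean of the 6 libraries, with the number of genes counted in brackets; circles are empty vector libraries, triangles libraries labelled gtr-1 RNAi, and colours the batches. The germline lists of the upper 9 lines are lowest in batch 2, and the sperm, hypodermis and body wall muscle markers are highest there.

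The summed levels of sperm, hypodermis and body wall muscle markers were highest in both batch 2 libraries on the TMM scale, where the germline genes were lowest. The summed level of 25 sperm genes was 151 and 171 CPM in batch 2 and 44.7 to 66.9 CPM in the other 4 libraries, that is 65.7 to 151 CPM with the empty vector and 44.7 to 171 CPM with the gtr-1 RNAi label. Of the 20 sperm genes tested, 17 had both batch 2 libraries highest, which held for 34.6% of all genes tested. The sperm gene msd-1 had no read in any library and spe-29 none in some, and the most abundant of the list, spe-15, ran from 12.9 to 23.6 CPM. The summed level of 14 hypodermis genes was 1456 and 1344 CPM in batch 2 and 525 to 815 CPM elsewhere, with 11 of 14 highest in batch 2 (525 to 1456 CPM with the empty vector and 584 to 1344 CPM with the label); its most abundant gene, the collagen col-19, ran from 62.9 to 436 CPM. That of 14 somatic gonad genes was 1211 to 1332 CPM over all libraries, led by fln-1, a filamin (700.2 to 866 CPM), with 7 of 14 genes highest in batch 2. The summed level of 12 intestine genes was 48231 to 72741 CPM with the empty vector and 76816 to 95800.0 CPM with the gtr-1 RNAi label, led by the vitellogenin vit-6 (25800.0 to 58290.0 CPM). These sums did not overlap. Of the single genes, 1 of the 12 (8.33%) had groups without overlap, beside 5.99% of all genes tested. In 9 of 12 both batch 2 libraries were highest, which makes the groups overlap whatever the treatment. The log2 fold change lay above 0 for 11 of the 12, with a median of 0.22. With the label, 7 were higher in every pair and 0 lower in every pair. Before adjustment 5 of the 12 had an edgeR p below 0.05, all of them higher, beside 4.99% of all genes tested. After adjustment 0 of the 12 passed. The 14 body wall muscle genes summed to 5195 and 5222 CPM in batch 2 and to 3289 to 4735 CPM elsewhere (4004 to 5195 CPM with the empty vector and 3289 to 5222 CPM with the label), led by the myosin unc-54 (1075 to 1820.0 CPM), with 8 of 14 highest in batch 2. The 14 neuron genes summed to 428 to 530.4 CPM with the empty vector and to 405 to 566 CPM with the label, led by the synaptobrevin snb-1 (140.1 to 177 CPM), with 5 of 14 highest in batch 2. No gene of the somatic gonad, intestine, muscle, hypodermis or neuron lists was at 0 in any library. The muscle list holds unc-54 and the hypodermis list holds rol-6, and the transgenes of this strain carry the unc-54 promoter and a rol-6 allele. Whether transgene reads were counted in these markers was not tested. The part of these cell types in the batch and treatment values of the germline genes was not tested.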

How the data were processed

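Counts of the 6 libraries were deposited by the authors as whole numbers per gene. Per the submitters' processing notes, cutadapt 2.10, TopHat2 2.1.1, HTSeq 2.01, DESeq2 1.36.0 and build WBcel235 were used; their settings, and the handling of strand and of shared reads, are not given in the sources used here. Per the labels' protocols the libraries were made with a stranded mRNA kit. The normalized signal deposited by the authors is the count over 1 constant per library, and the batch-corrected score deposited by the authors goes below 0 in 43 values; neither was used in a test. Of 46934 rows, 24518 hold no count and entered nothing.

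Genes were tested with edgeR 4.0.16 in R 4.3.3: filterByExpr with a minimum count of 10, TMM scaling, and quasi-likelihood F tests with terms for batch and treatment (2 residual and 3.16 prior degrees of freedom). P-values were adjusted by Benjamini and Hochberg over all 15519 genes, with a threshold of 0.05. SE is the log2 difference over the square root of F. CPM follow TMM; TPM use the exonic lengths of the Ensembl annotation of WBcel235. Differences between single batches were read from the same fit, a choice made after seeing the data, as was total-count scaling. DESeq2 1.42.0 (Wald test, and a likelihood ratio test for batch) was an alternative.

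The labels pair the groups by batch number. Library deviations from the group mean correlated across genes at r = 0.706, 0.465 and 0.663 within batches 2, 3 and 4, and at -0.711 to 0.522 between batches. The 0.522 was that of the empty vector in batch 3 with the label in batch 4, so these values do not bear out the batch 3 pair. Deviations from a group mean cancel within the group, so negative values between batches are partly built in. No library was a copy of another: chi-square values over degrees of freedom between libraries of 1 group were 24.3 to 142. Counting error is small at the depth of these genes.

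The members and lists were chosen with earlier results of these data known. All 31 members are named, with gtr-1, from the other germline lists genes among the 3 with the smallest p, and of the marker lists genes with the highest level; mip-1, mip-2 and opt-2 had no counted row of that name. Alternatives were other scalings, filters and thresholds, DESeq2, no block, and leaving out each batch pair or library.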

Additional observations from a re-analysis of the deposited data

How the results depend on the processing

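With no replicate block, 0 of the 31 genes passed by treatment, as with it, and 1 gene higher in all; puf-3 then had a log2 fold change of 0.0037. Under every planned and added setting 0 of the 31 passed by treatment, and their smallest adjusted p lay between 0.06 (glh-2, without the batch 2 pair) and 1. The counts over all genes were less stable: 132 higher and 69 lower with DESeq2 size factors, 244 and 97 with DESeq2, 123 and 42 with no filter, 6 higher with a minimum count of 50, 79 and 35 at an adjusted p under 0.1, 5 higher with total-count scaling (chosen after seeing the data), and 0 to 745 higher and 0 to 420 lower when a library or pair was left out. With a library or pair left out, the genes called by batch ranged from 356 to 8036, and the members so called from 0 to 31. Without the batch 2 pair, between batches 3 and 4 alone, 0 of the 31 passed in edgeR, beside 356 of 15147 genes. At an unadjusted p under 0.05 there were 9 of the 31, not counted over all genes. With the other libraries or pairs left out 26 to 31 passed. The median log2 difference of the members from batch 2 was 0.68 in batch 3 with no filter, 0.46 and 0.51 in batches 3 and 4 with a minimum count of 50, and 0.38 and 0.45 with total-count scaling, and it was 0.53 to 0.71 and 0.58 to 0.75 when a library was left out. The cause of these shifts was not tested.

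Of the 31 members, 10 kept the sign of their treatment estimate in every setting. Leaving out a library or pair still moved several of these by over 1.5 times: the ranges were -0.17 to -0.042 for nos-2, -0.16 to -0.050 for pie-1, -0.13 to -0.032 for mex-3, -0.12 to -0.025 for mex-6, -0.14 to -0.053 for cpg-1, -0.11 to -0.0052 for egg-4 and -0.10 to -0.029 for pgl-3. The median of the germ granule genes ran from -0.17 to -0.11 and that of the early embryo genes from -0.12 to -0.025; without the batch 4 pair they were -0.11 and -0.12. With a minimum count of 50 the sign turned for perm-4 (0.00091), perm-2 (0.0039), glp-1 (0.0059), pos-1 (0.0092), egg-2 (0.0098), puf-3 (0.016), egg-1 (0.017) and cpg-3 (0.022). It turned for cpg-3 with no filter (0.0036) and for puf-11 (-0.0093) and chs-1 (-0.028) with total-count scaling. Leaving out a library or pair turned 21 genes, over log2 ranges of -0.069 to 0.017 for pgl-1, -0.043 to 0.043 for glp-1, -0.095 to 0.023 for gld-1, -0.051 to 0.055 for puf-3, -0.074 to 0.035 for puf-5, -0.015 to 0.080 for puf-11, -0.088 to 0.035 for oma-1 and -0.12 to 0.00091 for oma-2. For eggshell genes the ranges were -0.059 to 0.011 for cbd-1, -0.040 to 0.038 for egg-1, -0.057 to 0.034 for egg-2, -0.071 to 0.026 for egg-3, -0.077 to 0.023 for egg-5, -0.066 to 0.088 for perm-2, -0.11 to 0.11 for perm-4, -0.045 to 0.062 for chs-1, -0.088 to 0.0061 for cpg-2 and -0.054 to 0.047 for cpg-3, and for early embryo genes -0.078 to 0.049 for pos-1, -0.081 to 0.010 for mex-1 and -0.075 to 0.0066 for mex-5.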
